A study of Homo sapiens with 12 samples.

Results

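The genes described here are the 44 that encode the core machinery of DNA replication, the enzymes that supply its deoxynucleotides, and cyclin E, which starts S phase. They were chosen by symbol from a list of replication proteins, not by their measured values, but with earlier results of these data known. All 44 were found among the 54261 genes of the deposited table, and all 44 were among the 13312 genes tested, which had an FPKM (reads scaled to gene length and library depth) of at least 1 in at least 3 libraries. The lowest value of any member in any library was 1.72 FPKM, for POLA1, so no member passed through 1 group alone.

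Replication starts at origins bound by the origin recognition complex (ORC), where CDC6 and CDT1 load the MCM2-7 helicase in G1 phase. In S phase MCM10, CDC45 and the GINS complex turn the loaded ring into an active helicase. Primase and polymerase alpha then start each new strand, the sliding clamp PCNA and its loader RFC hold polymerases delta and epsilon on the DNA, RPA coats the unwound strands, and FEN1 and LIG1 join the fragments of the lagging strand. Ribonucleotide reductase (RRM1 and RRM2) and thymidylate synthase (TYMS) make the deoxynucleotides. Many of these genes are known targets of E2F transcription factors and are transcribed mainly in proliferating cells.

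PolyA RNA was sequenced from cells of the established pancreatic neuroendocrine tumour line BON-1, of human origin, cultured by themselves or with CAFs (usually read as cancer-associated fibroblasts). Of the 4 groups, 1 was BON-1 alone and the others were co-cultures with BON-1 and CAFs mixed 10:2, 10:4 and 10:6, with 3 libraries in each, and in the co-cultures BON-1 cells were separated from CAFs by flow cytometry before RNA was taken. Every library is labelled as the same BON-1 line, and no other treatment is named. The extract protocol of every sample, BON-1 alone included, says that the cells were sorted from co-culture. It is therefore not clear whether BON-1 alone went through the sorter. Nor is it stated how pure the sorted cells were, or whether the libraries of a group came from separate cultures. The p-values thus measure the spread between libraries, which may be technical. In bulk RNA, fewer cells in S phase and less of a transcript per cell cannot be told apart.

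The libraries held 11703624 to 21882537 reads, with the deepest and widest range in BON-1 alone (12918760 to 21882537) and 11703624 to 15327524 in the co-cultures. Of 14 neuroendocrine markers, 12 were tested, among them chromogranin A (CHGA) at 1347 FPKM and INSM1 at 195 FPKM in BON-1 alone, while TPH1, the serotonin-synthesis enzyme, stayed at or below 0.251 FPKM in every library. At 10:6 against BON-1 alone 4 of the 12 rose and 6 fell, beside 29.7% and 18.3% of all tested genes. The summed FPKM of the 14 averaged 2792 in BON-1 alone, 3003 at 10:2, 3032 at 10:4 and 3109 at 10:6. Of 20 fibroblast markers, 15 were tested, and 14 of them rose at 10:6 against BON-1 alone. The summed FPKM of 18 of these markers, without S100A4 and VIM, which were high in BON-1 alone, ranged from 58.6 to 62.5 in BON-1 alone, 96.7 to 98.8 at 10:2, 179.9 to 185 at 10:4 and 263 to 266 at 10:6. With S100A4 and VIM included, the sum was 2418 ± 41.8 in BON-1 alone, 2291 ± 42.4 at 10:2, 2465 ± 126 at 10:4 and 2662 ± 146 at 10:6 (SD). The full sum was thus lowest at 10:2. DPT was at 0 in all 12 libraries, and FAP was at or below 0.177 FPKM. The level of the 18 markers moved with every comparison below, and its part in the results was not tested.

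Promoter sequences are given for 4 members that stand for the directions found below: MCM6 and RRM1 rose in co-culture, and MCM2 and CDT1 fell. They were chosen after their values were seen. Each is the RefSeq promoter on GRCh38.p14, from 250 bases before the start of the gene to 50 bases after it, written 5′ to 3′ on the strand of the gene. MCM6 lies on the minus strand at chr2:135876394-135876693, RRM1 on the plus strand at chr11:4094435-4094734, MCM2 on the plus strand at chr3:127598161-127598460 and CDT1 on the plus strand at chr16:88803539-88803838. Capitals mark E2F-like octamers (TTTGGCGC, TTTCGCGC, TTTCCCGC or TTTGCCGC) and the CCAAT box (CCAAT), each searched on both strands. Octamers on opposite strands can overlap and then run together as 1 stretch of capitals.
MCM6: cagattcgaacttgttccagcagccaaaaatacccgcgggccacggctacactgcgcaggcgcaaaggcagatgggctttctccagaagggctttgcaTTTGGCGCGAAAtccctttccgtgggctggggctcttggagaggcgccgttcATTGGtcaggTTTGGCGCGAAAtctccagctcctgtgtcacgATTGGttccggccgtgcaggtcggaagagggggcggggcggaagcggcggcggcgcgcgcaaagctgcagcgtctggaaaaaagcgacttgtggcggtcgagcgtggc
RRM1: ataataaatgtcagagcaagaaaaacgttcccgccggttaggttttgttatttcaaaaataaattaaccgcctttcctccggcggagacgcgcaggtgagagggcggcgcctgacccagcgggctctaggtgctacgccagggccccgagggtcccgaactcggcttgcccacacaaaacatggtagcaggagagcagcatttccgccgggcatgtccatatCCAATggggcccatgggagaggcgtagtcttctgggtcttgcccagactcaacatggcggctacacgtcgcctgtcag
MCM2: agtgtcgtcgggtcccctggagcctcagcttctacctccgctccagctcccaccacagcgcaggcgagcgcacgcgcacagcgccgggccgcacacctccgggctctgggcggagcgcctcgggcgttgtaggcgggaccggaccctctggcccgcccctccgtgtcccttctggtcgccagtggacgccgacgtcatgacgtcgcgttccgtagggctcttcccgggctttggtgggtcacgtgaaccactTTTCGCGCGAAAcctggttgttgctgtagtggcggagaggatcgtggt
CDT1: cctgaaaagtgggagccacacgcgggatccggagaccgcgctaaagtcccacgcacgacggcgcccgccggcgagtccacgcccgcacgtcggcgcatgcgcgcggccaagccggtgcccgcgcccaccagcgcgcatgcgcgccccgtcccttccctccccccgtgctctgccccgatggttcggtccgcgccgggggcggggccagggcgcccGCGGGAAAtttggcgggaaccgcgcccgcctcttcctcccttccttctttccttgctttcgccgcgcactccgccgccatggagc
The MCM6 promoter held 4 octamer matches and 2 CCAAT boxes, and the RRM1 promoter held 1 CCAAT box and no octamer. The MCM2 promoter held 2 octamer matches and the CDT1 promoter 1, and neither held a CCAAT box. Of the 44 members, 38 had a promoter in the table (MCM5, CCNE2, GINS4, MCM4, RPA2 and RPA3 did not), and 18 of those 38 (47.4%) held an octamer, compared with 6.73% of the 9133 tested genes with a promoter and 3.31% of all 35116 promoters. A CCAAT box was found in 22 of 38 members (57.9%), 42.9% of the tested genes and 34.6% of all promoters. The octamer was present in 6 of 16 members that rose at 10:6, 6 of 11 that fell and 6 of 11 that did not pass. For the CCAAT box it was 10 of 16 that rose, 4 of 11 that fell and 8 of 11 that did not pass. The difference between these shares was not tested. A match is a run of letters in this window and says nothing of binding.

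In the co-cultures the replication genes differed from BON-1 alone in both directions. The group means of their summed level lay between 1767 and 1789 FPKM. The sum of the 44 members was 1783 ± 8.26 in BON-1 alone, 1789 ± 2.57 at 10:2, 1781 ± 16.5 at 10:4 and 1767 ± 6.20 at 10:6 (SD, n = 3 each). At 10:6 against BON-1 alone, 17 of 44 members rose (38.6%) and 13 fell (29.5%), beside 29.7% of all tested genes rising and 18.3% falling. The calls come from limma on log2(FPKM + 1), with Benjamini-Hochberg adjustment over all 13312 genes and a threshold of 0.05. At 10:4, 17 rose (38.6%) and 11 fell (25.0%), beside 27.3% and 18.1% of all genes. At 10:2, 14 rose (31.8%) and 3 fell (6.82%), beside 19.9% and 7.46%. The difference between these shares of members and of all genes was not tested.

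The genes that rose at 10:2 were ORC2, ORC5, CDC6, MCM6, MCM10, PRIM1, PRIM2, POLA1, PCNA, RFC1, RFC3, RFC4, RRM1 and CCNE2. ORC3, ORC4 and POLE2 joined them at 10:4, and at 10:6 ORC4, POLE2 and RRM2 did. CDT1, MCM7 and POLD2 fell at 10:2. MCM2, MCM3, MCM4, MCM5, CDC45, POLD1, POLE and LIG1 also fell at 10:4, and at 10:6 the added falls were MCM2, MCM4, MCM5, CDC45, POLD1, POLE, RFC2, FEN1, LIG1 and TYMS. These comparisons share the 3 libraries of BON-1 alone. The other 12 members (ORC1, ORC6, GINS1, GINS2, GINS3, GINS4, POLA2, RFC5, RPA1, RPA2, RPA3 and CCNE1) passed at no ratio, and no member was called in opposite directions. In a moderated F test over the 4 groups 28 of 44 members passed, beside 44.4% of all genes. The median log2 difference of the members was 0.031 at 10:2, 0.038 at 10:4 and 0.070 at 10:6, and the medians of all genes were 0.0034, -0.010 and 0.019.

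Counted by library instead, every library at 10:6 lay above every library of BON-1 alone for 21 members and below for 16, beside 33.8% and 24.5% of all genes. At 10:4 this held for 18 above and 13 below, beside 30.8% and 24.3%, and at 10:2 for 17 above and 6 below, beside 27.1% and 18.3%.

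**Figure D1:**
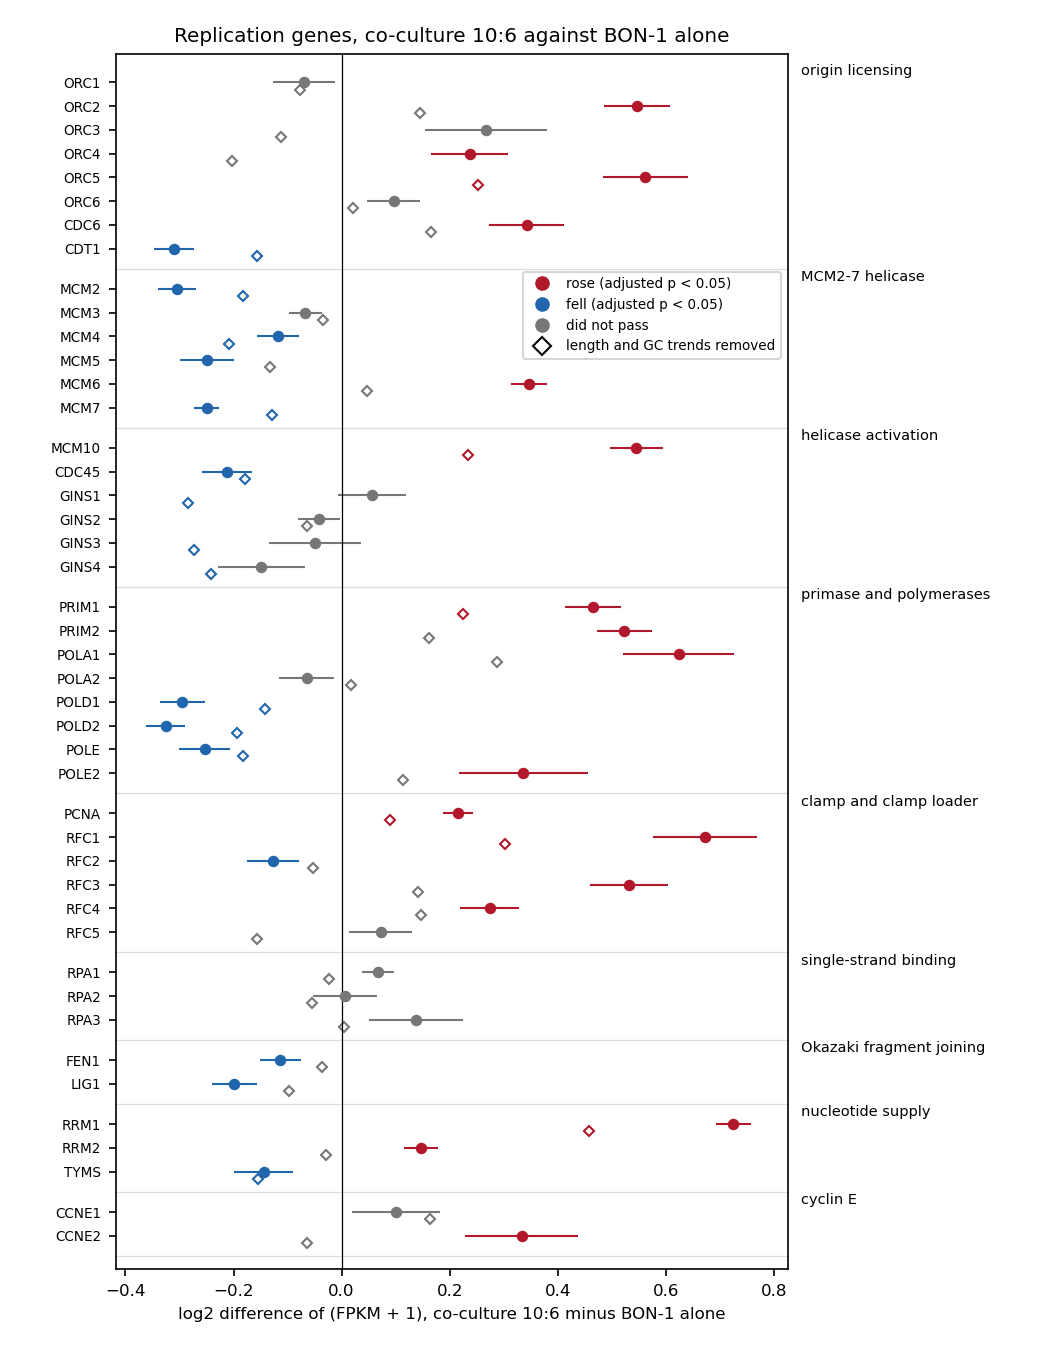
The log2 difference of FPKM + 1 between co-culture 10:6 and BON-1 alone for the 44 members, grouped by role, with bars of 1 standard error; open diamonds give the difference after length and GC trends were removed. Filled red points (17) rose, filled blue points (13) fell and grey points (14) did not pass; RRM1 lies farthest right at 0.72 and POLD2 farthest left at -0.33.

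The direction of a member followed its base composition, as it did for all genes. At 10:6 against BON-1 alone the 17 members that rose had a GC content of 36.9% to 45.8% in their longest transcript (median 42.9%), and the 13 that fell had 48.5% to 65.0% (median 56.4%), so the ranges did not overlap. At 10:4 the ranges were 36.9% to 45.5% for rises and 48.5% to 65.0% for falls. Across the 44 members Spearman's rho between GC content and the log2 difference was -0.85 at 10:2, -0.87 at 10:4 and -0.86 at 10:6. Across the 12388 tested genes of known GC content and length it was -0.68, -0.72 and -0.72. These are descriptions across genes, which share the same libraries. The risers also started lower, with a median of 4.19 FPKM in BON-1 alone, compared with 56.0 FPKM for the members that fell.

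Set against all genes of like GC content, the medians of the members had the same sign as those of all genes in every class at 10:6. Between 40% and 45% GC the 13 members had a median log2 difference of 0.52 at 10:6, and the 2488 genes of that class had 0.35. In the class from 45% to 50% the medians were 0.0818 for 12 members and 0.0823 for 2140 genes. From 55% to 60% GC they were -0.25 for 6 members and -0.13 for 1979 genes. Up to 40% GC the members moved less, at 0.30 for 4 members and 0.39 for 1660 genes. From 50% to 55% the medians were -0.0698 for 7 members and -0.0701 for 2050 genes. Above 60% they were -0.30 for 2 members and -0.15 for 2071 genes. The log2 differences were therefore also computed after a smooth trend on gene length and GC content was taken out of each library. A relation to GC content remained among the members. Spearman's rho was then -0.41 at 10:2, -0.49 at 10:4 and -0.41 at 10:6 across members. Across the 12388 genes it was -0.027, -0.015 and -0.035. After this step 6 members rose and 12 fell at 10:6, beside 12.9% and 12.4% of 12388 genes. At 10:4 it was 5 and 8, beside 11.1% and 10.8%, and at 10:2 it was 4 and 2, beside 6.58% and 4.58%. Of the 17 rises at 10:6, 6 were kept, and of the 13 falls, 9 were kept. The F test then passed 15 members, beside 22.5% of the genes. The rises were then ORC5, MCM10, PCNA and RRM1 at 10:2, PRIM1, PCNA, RFC3, RFC4 and RRM1 at 10:4, and ORC5, MCM10, PRIM1, PCNA, RFC1 and RRM1 at 10:6. The falls were MCM7 and GINS1 at 10:2, MCM2, MCM4, MCM7, GINS1, GINS3, GINS4, POLD2 and POLE at 10:4, and those 8 with CDT1, CDC45, POLD1 and TYMS at 10:6. Every other rise and fall named above missed the threshold after this step. The part of the GC trend in these differences was not tested.

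**Figure D2:**
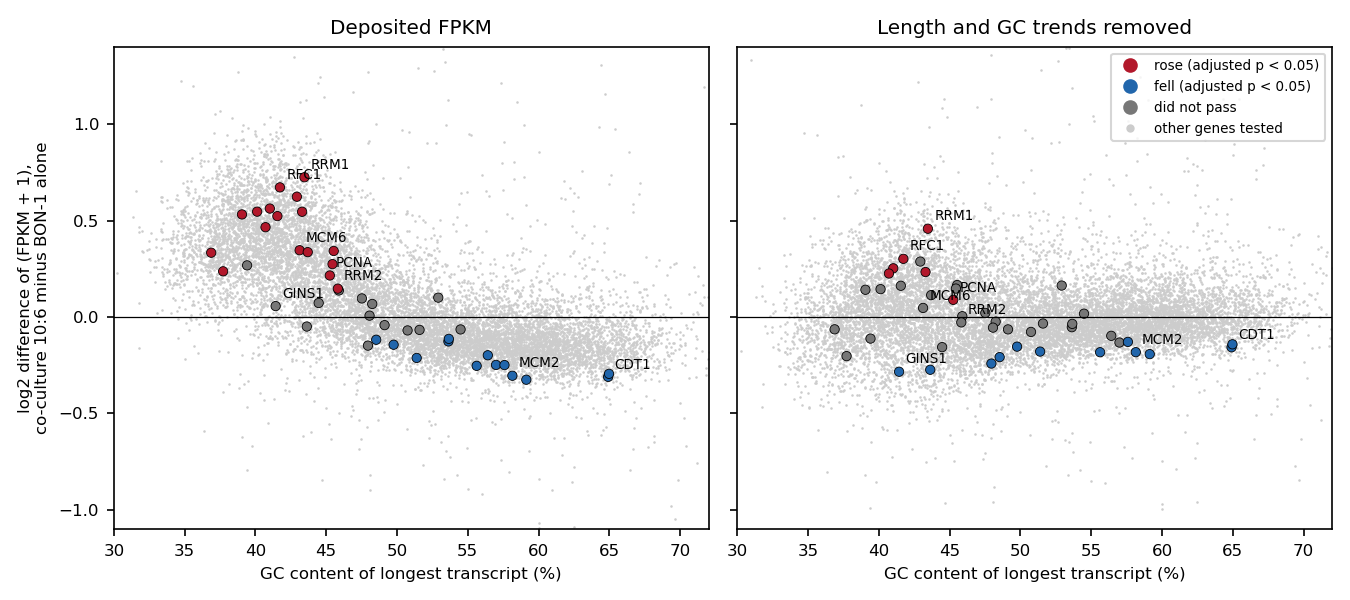
Each point is a gene, by the GC content of its longest transcript (x axis, percent) and the log2 difference of FPKM + 1 between co-culture 10:6 and BON-1 alone (y axis), from the deposited FPKM on the left and after removal of the length and GC trends on the right. On the left the members that rose lie at 36.9% to 45.8% GC and those that fell at 48.5% to 65.0%; on the right RRM1 stays highest among the members at 0.46.

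Of the 8 origin licensing genes, 4 rose and 1 fell at 10:6, beside 29.7% and 18.3% of all tested genes. With the trends removed 1 rose and 1 fell there, beside 12.9% and 12.4%. As deposited, the log2 differences ran from -0.31 (CDT1) to 0.56 (ORC5). ORC2, a subunit of the origin recognition complex, had 3.60, 3.69 and 3.88 FPKM in BON-1 alone, 5.55, 5.11 and 4.96 at 10:2, 5.81, 5.81 and 5.83 at 10:4 and 5.41, 6.44 and 5.87 at 10:6. Every co-culture library lay above every library of BON-1 alone. Its log2 difference from BON-1 alone was 0.39 ± 0.0609 (SE) at 10:2, 0.53 ± 0.0609 at 10:4 and 0.55 ± 0.0609 at 10:6 (limma adjusted p = 0.000673, 3.56e-05 and 2.71e-05). It was 0.14 at 10:6 with the trends removed and no longer passed (adjusted p = 0.0704).

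ORC5, another subunit of that complex, had 4.33, 4.29 and 3.95 FPKM in BON-1 alone, 7.33, 5.94 and 5.96 at 10:2, 6.75, 6.25 and 5.66 at 10:4 and 6.32, 6.79 and 6.89 at 10:6. The co-cultures were again all above BON-1 alone, but overlapped each other. At 10:6 the log2 difference was 0.56 ± 0.0792 (adjusted p = 0.000149), and 0.25 with the trends removed (adjusted p = 0.0257). CDC6, which loads MCM2-7 together with CDT1, rose at all 3 ratios, and its calls at 10:2 and 10:4 ended when replicate 1 or 2 of BON-1 alone or replicate 1 or 2 of that co-culture was left out (adjusted p from 0.0681 to 0.113). It averaged 23.7 ± 1.94 FPKM at 10:6 and 18.5 ± 0.731 FPKM in BON-1 alone (log2 difference 0.34 ± 0.069, adjusted p = 0.0017), and stood at 0.17 with the trends removed (adjusted p = 0.112).

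CDT1 (Entrez gene 81620), the other loading factor, lies on chromosome 16 from 88803789 to 88809258. It had 88.6, 88.3 and 86.3 FPKM in BON-1 alone, 78.7, 80.5 and 73.0 at 10:2, 78.9, 75.6 and 80.4 at 10:4 and 70.3, 69.9 and 71.5 at 10:6. All 9 co-culture libraries lay below BON-1 alone, and the 3 libraries at 10:6 were the lowest. CDT1 differed from BON-1 alone by -0.18 ± 0.0374 (log2) at 10:2, -0.16 ± 0.0374 at 10:4 and -0.31 ± 0.0374 at 10:6 (adjusted p = 0.00439, 0.00424 and 4.77e-05). After trend removal it passed at 10:6 alone, at -0.16 (adjusted p = 0.00164).

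The other 4 licensing genes had fewer calls. ORC3 had 5.04 to 5.91 FPKM at 10:4 and 2.82 to 3.54 FPKM in BON-1 alone and rose at that ratio, with a log2 difference of 0.64 ± 0.113 (adjusted p = 0.000759), and 0.24 with the trends removed (adjusted p = 0.105). At 10:6 it was 0.27 ± 0.113 and did not pass (adjusted p = 0.0698), but it passed without replicate 3 of BON-1 alone or replicate 2 or 3 of 10:2 (adjusted p = 0.0465, 0.0308 and 0.03). ORC3 also passed at 10:6 under limma-voom on recovered reads, with only the groups compared and with protein-coding genes alone (adjusted p = 0.0233, 0.03 and 0.037). At 10:2 it passed without replicate 2 of 10:2 (adjusted p = 0.0127). It also passed there under limma-voom on recovered reads and with protein-coding genes alone (adjusted p = 0.019 and 0.0382). ORC4 averaged 3.66 ± 0.307 FPKM at 10:6 and 2.95 ± 0.224 FPKM in BON-1 alone (adjusted p = 0.0169), and stood at -0.20 with the trends removed (adjusted p = 0.0909). That call ended without replicate 1 of BON-1 alone or replicate 1 or 3 of 10:6 (adjusted p = 0.0721, 0.0584 and 0.0595). At 10:2 ORC4 passed under limma-voom on recovered reads (adjusted p = 0.0423). ORC1 and ORC6 had log2 differences of -0.070 and 0.096 at 10:6, and with all libraries neither passed at any ratio. At 10:4, ORC1 passed without replicate 3 of 10:4 (adjusted p = 0.0301) and ORC6 without replicate 3 of 10:2 (adjusted p = 0.0404). ORC6 also passed at 10:6 with only the groups compared (adjusted p = 0.044). Exons of ORC4 overlap those of ACVR2A and MBD5 on the other strand, and since the counting is not stated to use strand, its values are uncertain.

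The 6 subunits of the MCM2-7 helicase, which work as a single ring, did not move together as deposited. MCM6 rose while its partners fell or did not pass. At 10:6, 1 of 6 rose and 4 fell, beside 29.7% and 18.3% of all tested genes. With the trends removed 0 rose and 3 fell there, beside 12.9% and 12.4%. MCM6 (Entrez gene 4175), on chromosome 2 from 135839626 to 135876443, had 31.4, 30.7 and 32.5 FPKM in BON-1 alone, 39.7, 38.7 and 39.1 at 10:2, 38.7, 41.3 and 39.6 at 10:4 and 40.8, 39.99 and 40.3 at 10:6. All co-culture libraries lay above BON-1 alone, 10:4 overlapped both other ratios, and 10:6 lay above 10:2. Against BON-1 alone the log2 difference was 0.30 ± 0.0331 at 10:2, 0.33 ± 0.0331 at 10:4 and 0.35 ± 0.0331 at 10:6 (adjusted p = 6.27e-05, 1.36e-05 and 8.98e-06). Trend removal left 0.047 at 10:6, which did not pass (adjusted p = 0.308). At 43.1% GC, MCM6 had the lowest GC content of the 6 subunits.

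MCM2 (Entrez gene 4171), on chromosome 3 from 127598411 to 127622436, had 82.0, 79.7 and 79.0 FPKM in BON-1 alone, 74.1, 75.7 and 74.4 at 10:2, 66.4, 65.4 and 69.4 at 10:4 and 67.7, 64.8 and 61.9 at 10:6. Every library at 10:4 and 10:6 lay below every library at 10:2, which lay below BON-1 alone. The log2 difference from BON-1 alone was -0.10 ± 0.0359 at 10:2 (adjusted p = 0.0552), -0.26 ± 0.0359 at 10:4 (adjusted p = 0.000154) and -0.30 ± 0.0359 at 10:6 (adjusted p = 4.05e-05). At 10:2 it passed without replicate 3 of 10:4 or replicate 1 or 3 of 10:6 (adjusted p = 0.0473, 0.0366 and 0.0416). It also passed there under limma-voom on recovered reads and with only the groups compared (adjusted p = 0.0103 and 0.03). The same held after median-of-ratios rescaling and with protein-coding genes alone (adjusted p = 0.0404 and 0.0461). MCM2 still fell with the trends removed at 10:4 and 10:6, by 0.13 and 0.18 (adjusted p = 0.00784 and 0.000836).

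MCM7 was the most abundant subunit, with 192, 193 and 199.9 FPKM in BON-1 alone, 174, 178 and 175 at 10:2, 169 in each library at 10:4 and 165, 163 and 163 at 10:6. The 4 groups did not overlap, and each larger share of CAFs came with a lower level. Its log2 difference was -0.15 ± 0.0233 at 10:2, -0.21 ± 0.0233 at 10:4 and -0.25 ± 0.0233 at 10:6 (adjusted p = 0.000673, 3.1e-05 and 7.41e-06). MCM7 also fell with the trends removed, by 0.073, 0.083 and 0.13 (adjusted p = 0.044, 0.0141 and 0.000912). Exons of MCM7 overlap AP4M1, and those of MCM2 overlap TPRA1, both on the other strand.

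MCM5 averaged 47.0 ± 0.35 FPKM at 10:6 and 56.0 ± 0.507 FPKM in BON-1 alone, a log2 difference of -0.25 ± 0.0505 (adjusted p = 0.00176), and -0.13 with the trends removed (adjusted p = 0.0683). At 10:2 it passed without replicate 1 of 10:4 (adjusted p = 0.0076). It also passed there with only the groups compared and under limma-voom on recovered reads (adjusted p = 0.0215 and 0.0265). MCM4 averaged 47.7 ± 1.29 and 51.8 ± 1.15 FPKM in the same groups (adjusted p = 0.0251), and was the only subunit whose fall was larger with the trends removed, at -0.21 (adjusted p = 0.00105). As deposited, the call of MCM4 at 10:6 ended without replicate 2 or 3 of BON-1 alone or replicate 1 or 2 of 10:6 (adjusted p = 0.0892, 0.0594, 0.0845 and 0.0525). MCM3 fell at 10:4 by 0.10 (adjusted p = 0.0158), a call that ended without replicate 3 of BON-1 alone or replicate 2 of 10:4 (adjusted p = 0.0533 and 0.059). At 10:6 its difference of -0.067 did not pass (adjusted p = 0.0898), but it passed without replicate 1 of 10:6 (adjusted p = 0.0355). MCM3 also passed there under limma-voom on recovered reads and after median-of-ratios rescaling (adjusted p = 0.0104 and 0.0232). The ratio of MCM6 to MCM2, formed after their values were seen, was 0.393 ± 0.0158 in BON-1 alone, 0.524 ± 0.0123 at 10:2, 0.595 ± 0.032 at 10:4 and 0.624 ± 0.0252 at 10:6. It was taken from the deposited FPKM, and the GC contents of MCM6 and MCM2 were 43.1% and 58.1%. With the trends removed their log2 differences at 10:6 were 0.047 and -0.18.

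**Figure D3:**
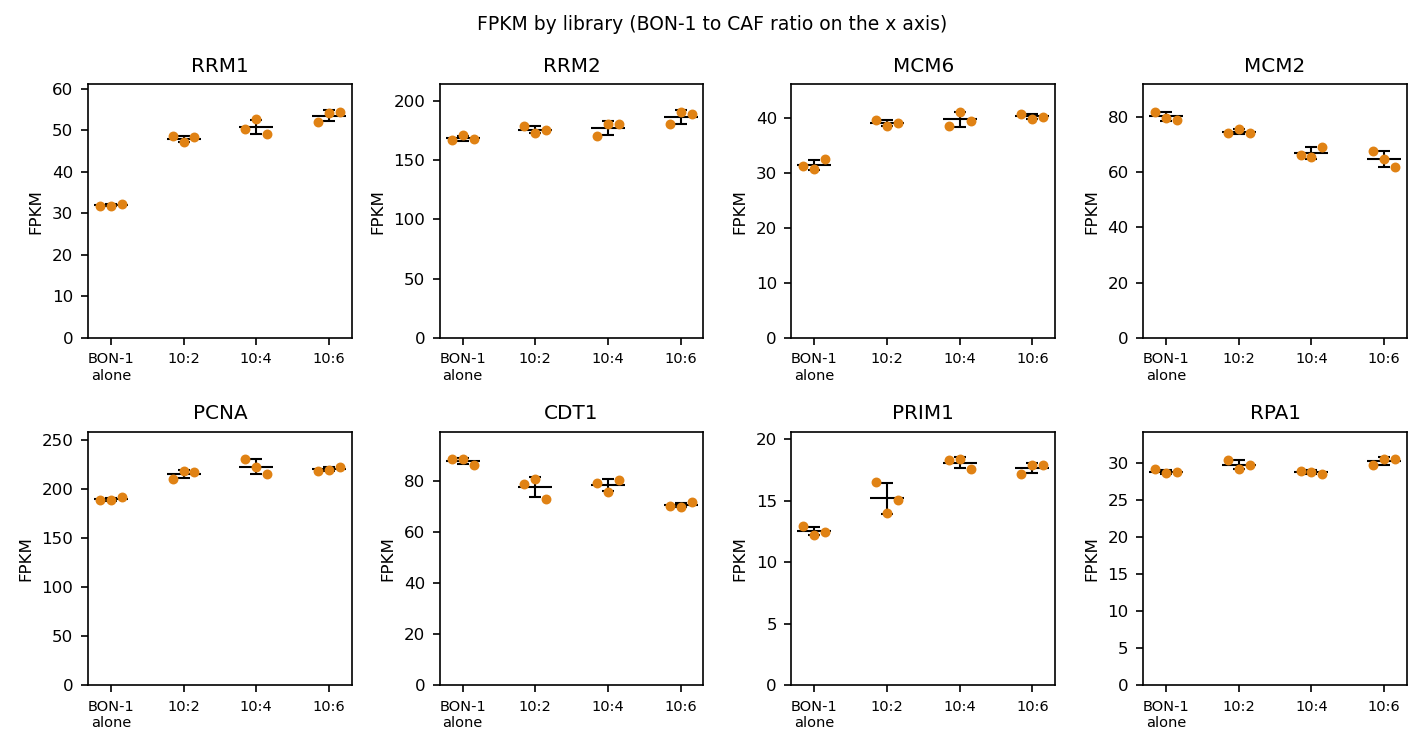
FPKM of 8 members in each of the 12 libraries (points), with the mean and SD of each group of 3 (bars); the x axis gives BON-1 alone and the BON-1 to CAF ratio. RRM1 lies at 31.8 to 32.3 in BON-1 alone and at 47.1 to 54.4 in the co-cultures, while MCM2 lies at 79.0 to 82.0 in BON-1 alone and at 61.9 to 67.7 at 10:6.

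Among the factors that activate the helicase, MCM10 rose, CDC45 fell, and the 4 GINS genes did not pass. MCM10, which binds the helicase and helps it start, had 8.96, 8.38 and 9.19 FPKM in BON-1 alone, 11.8, 11.5 and 12.2 at 10:2, 11.4, 12.7 and 11.7 at 10:4 and 13.6, 13.0 and 13.4 at 10:6. The libraries at 10:6 were the highest, above all of the others. MCM10 rose by 0.38 ± 0.0484 (log2) at 10:2, 0.39 ± 0.0484 at 10:4 and 0.55 ± 0.0484 at 10:6 (adjusted p = 0.000191, 5.71e-05 and 5.14e-06). Trend removal left 0.23 at 10:6 (adjusted p = 0.00245).

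CDC45, a part of the active helicase, had 36.0, 32.8 and 36.3 FPKM in BON-1 alone, 31.9, 32.9 and 33.1 at 10:2, 32.8, 30.3 and 30.4 at 10:4 and 29.2, 29.8 and 31.3 at 10:6. BON-1 alone overlapped with 10:2 but not with 10:6. CDC45 fell at 10:6, with a log2 difference of -0.21 ± 0.0465 (adjusted p = 0.00281), and at 10:4 by 0.16 (adjusted p = 0.0138). The call at 10:4 ended without replicate 1 or 3 of BON-1 alone, or without replicate 2 of 10:4 (adjusted p = 0.0543, 0.058 and 0.0528).

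GINS4, a subunit of the GINS complex, had 9.99, 8.89 and 8.95 FPKM in BON-1 alone, 9.59, 8.22 and 9.24 at 10:2, 7.40, 8.22 and 8.37 at 10:4 and 9.40, 7.69 and 7.78 at 10:6. Only the libraries at 10:4 lay wholly below BON-1 alone, and no comparison passed. GINS1 and GINS3 lay within the GC range of the members that rose, and neither passed as deposited. GINS1, at 41.4% GC, averaged 19.4 ± 1.97 FPKM at 10:6 and 18.5 ± 0.508 FPKM in BON-1 alone (log2 difference 0.056 ± 0.0636, adjusted p = 0.497), while 69.5% of all genes from 40% to 45% GC rose. Without replicate 1 of 10:6 it was called higher there (log2 difference 0.14, adjusted p = 0.0322). GINS1 fell, with the trends removed, at 10:2, 10:4 and 10:6, by 0.21, 0.28 and 0.28 (adjusted p = 0.027, 0.00272 and 0.00242). GINS3, at 43.6% GC, and GINS4 also fell with the trends removed at 10:6, by 0.27 and 0.24 (adjusted p = 0.0421 and 0.039). GINS2, the most abundant at 107 ± 5.63 FPKM in BON-1 alone, passed in neither analysis. Under limma-voom on recovered reads GINS2 fell at 10:2 and GINS3 at 10:4 (adjusted p = 0.0352 and 0.0433). Without replicate 1 of 10:6, GINS4 fell at 10:4 and 10:6 as deposited (adjusted p = 0.0372 and 0.0259). It also fell under limma-voom on recovered reads at both ratios (adjusted p = 0.0107 and 0.0182), and at 10:4 with only the groups compared (adjusted p = 0.0468) or protein-coding genes alone (adjusted p = 0.046).

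In the primase and polymerase group, both primase subunits and POLA1 rose and the catalytic subunits of polymerases delta and epsilon fell. At 10:6, 4 of the 8 genes rose and 3 fell, beside 29.7% and 18.3% of all tested genes. With the trends removed PRIM1 still rose and POLD1, POLD2 and POLE still fell, beside 12.9% and 12.4%. PRIM1 (Entrez gene 5557), the catalytic primase subunit, on chromosome 12 from 56731580 to 56752323, had 12.9, 12.2 and 12.4 FPKM in BON-1 alone, 16.5, 14.01 and 15.1 at 10:2, 18.3, 18.4 and 17.6 at 10:4 and 17.2, 17.9 and 17.9 at 10:6. All co-culture libraries lay above BON-1 alone, and 10:4 and 10:6 lay above 10:2. PRIM1 rose by 0.26 ± 0.0523 (log2) at 10:2, 0.50 ± 0.0523 at 10:4 and 0.47 ± 0.0523 at 10:6 (adjusted p = 0.0037, 1.79e-05 and 2.81e-05). It remained at 0.25 and 0.23 with the trends removed at 10:4 and 10:6 (adjusted p = 0.00197 and 0.0035). Exons of PRIM1 overlap NACA and HSD17B6.

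PRIM2, the other primase subunit, had 3.86, 3.51 and 3.52 FPKM in BON-1 alone, 4.79, 4.64 and 4.80 at 10:2, 5.34, 5.13 and 5.45 at 10:4 and 5.83, 5.41 and 5.71 at 10:6. The co-cultures lay above BON-1 alone, and 10:2 lay below both larger ratios. Its log2 difference was 0.31 ± 0.0507 at 10:2, 0.45 ± 0.0507 at 10:4 and 0.52 ± 0.0507 at 10:6 (adjusted p = 0.000965, 3.25e-05 and 9.82e-06), and 0.16 at 10:6 with the trends removed (adjusted p = 0.0518). POLA1, the catalytic subunit of polymerase alpha, averaged 3.81 ± 0.374 FPKM at 10:6 and 2.13 ± 0.414 FPKM in BON-1 alone (log2 difference 0.62 ± 0.103, adjusted p = 0.000457), and stood at 0.29 with the trends removed (adjusted p = 0.0551). POLA2, its accessory subunit, averaged 16.1 ± 0.247 FPKM at 10:6 and 16.9 ± 0.194 FPKM in BON-1 alone and did not pass (adjusted p = 0.324).

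POLD2 (Entrez gene 5425), an accessory subunit of polymerase delta, lies on chromosome 7 from 44114680 to 44124325. It had 78.3, 77.9 and 80.3 FPKM in BON-1 alone, 70.4, 75.6 and 70.1 at 10:2, 69.4, 64.8 and 68.7 at 10:4 and 63.0, 63.1 and 62.0 at 10:6. The groups did not overlap, and 10:6 was the lowest. POLD2 differed by -0.13 ± 0.0365 (log2) at 10:2, -0.22 ± 0.0365 at 10:4 and -0.33 ± 0.0365 at 10:6 (adjusted p = 0.0221, 0.00052 and 2.8e-05), and -0.19 at 10:6 with the trends removed (adjusted p = 0.000701). The call at 10:2 ended without replicate 3 of BON-1 alone or replicates 1 or 3 of 10:2 (adjusted p = 0.0781, 0.0762 and 0.0817).

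POLD1, the catalytic subunit of polymerase delta, had 44.3, 44.01 and 47.3 FPKM in BON-1 alone, 41.1, 44.5 and 42.2 at 10:2, 39.5, 36.6 and 37.4 at 10:4 and 36.0, 37.0 and 36.9 at 10:6. Libraries at 10:2 overlapped with BON-1 alone, and those at 10:4 and 10:6 lay below both. POLD1 fell at 10:6 with a log2 difference of -0.29 ± 0.0416 (adjusted p = 0.00015), and with the trends removed it was -0.14 (adjusted p = 0.0261). POLE, the catalytic subunit of polymerase epsilon, had 15.7, 15.2 and 15.4 FPKM in BON-1 alone, 15.6, 14.2 and 14.5 at 10:2, 12.3, 12.5 and 13.6 at 10:4 and 13.0, 12.4 and 13.0 at 10:6. It divided in the same way, with 10:2 beside BON-1 alone and both larger ratios below them. POLE fell at 10:6 by 0.25 (adjusted p = 0.00094), and by 0.18 with the trends removed (adjusted p = 0.00407). POLE2, its accessory subunit, averaged 4.78 ± 0.625 FPKM at 10:6 and 3.56 ± 0.197 FPKM in BON-1 alone and rose (log2 difference 0.34 ± 0.119, adjusted p = 0.036), and stood at 0.11 with the trends removed (adjusted p = 0.514). That call ended without any replicate of BON-1 alone or replicate 1 or 3 of 10:6 (adjusted p from 0.0618 to 0.127), with the replicate number as a block (adjusted p = 0.0502), and without a filter on low values (adjusted p = 0.0991). At 10:4 the call of POLE2 ended without replicate 3 of BON-1 alone or replicate 2 of 10:4 (adjusted p = 0.0539 and 0.0679).

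The sliding clamp and 3 of the 5 subunits of its loader rose at 10:6, beside 29.7% of all tested genes. With the trends removed PCNA and RFC1 still rose there, beside 12.9%. PCNA (Entrez gene 5111), the clamp itself and a common marker of proliferating cells, lies on chromosome 20 from 5114953 to 5126622. It had 189, 189 and 192 FPKM in BON-1 alone, 211, 218 and 217 at 10:2, 231, 223 and 215 at 10:4 and 219, 219.8 and 223 at 10:6. Every co-culture library was above BON-1 alone, 10:4 overlapped both other ratios, and 10:6 lay just above 10:2. The log2 difference was 0.18 ± 0.0282 at 10:2, 0.23 ± 0.0282 at 10:4 and 0.22 ± 0.0282 at 10:6 (adjusted p = 0.000681, 5.46e-05 and 8.76e-05). PCNA passed with the trends removed too, at 0.12, 0.11 and 0.089 (adjusted p = 0.00555, 0.00379 and 0.0139).

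RFC1, the large subunit of the clamp loader, had 2.42, 2.11 and 1.94 FPKM in BON-1 alone, 3.05, 3.00 and 3.12 at 10:2, 3.79, 3.55 and 4.27 at 10:4 and 3.35, 4.14 and 4.66 at 10:6. BON-1 alone was lowest without overlap, and 10:4 and 10:6 overlapped. RFC1 rose by 0.36 ± 0.0964 (log2) at 10:2, 0.62 ± 0.0964 at 10:4 and 0.67 ± 0.0964 at 10:6 (adjusted p = 0.0161, 0.000312 and 0.00017), with 0.30 at 10:6 after trend removal (adjusted p = 0.0254). The call at 10:2 ended without replicate 2 or 3 of BON-1 alone (adjusted p = 0.0502 and 0.0627).

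RFC3, a small loader subunit, had 2.23, 2.23 and 2.38 FPKM in BON-1 alone, 3.78, 3.26 and 3.39 at 10:2, 4.05, 4.44 and 4.09 at 10:4 and 3.39, 3.72 and 4.14 at 10:6. The highest mean was at 10:4, with every library above all libraries at 10:2. Its log2 difference was 0.45 ± 0.0715 at 10:2, 0.66 ± 0.0715 at 10:4 and 0.53 ± 0.0715 at 10:6 (adjusted p = 0.000841, 2.22e-05 and 0.000105), and with the trends removed it passed at 10:4 alone, at 0.21 (adjusted p = 0.0223). RFC4 averaged 31.9 ± 2.32 FPKM at 10:6 and 26.2 ± 0.773 FPKM in BON-1 alone (adjusted p = 0.00163), and stood at 0.15 with the trends removed (adjusted p = 0.0667). Its call at 10:2 ended without replicate 1 of BON-1 alone or replicate 3 of 10:2 (adjusted p = 0.0578 and 0.0648), and its exons overlap EIF4A2. RFC2 averaged 41.0 ± 1.64 FPKM at 10:6 and 44.8 ± 0.846 FPKM in BON-1 alone and fell by 0.13 (adjusted p = 0.0461), and stood at -0.053 with the trends removed (adjusted p = 0.454). The call of RFC2 ended without a filter on low values (adjusted p = 0.0978) and when any of 8 libraries was left out: each replicate of BON-1 alone, replicate 3 of 10:2, replicate 2 or 3 of 10:4, or replicate 1 or 2 of 10:6 (adjusted p from 0.0505 to 0.168). RFC5 had a log2 difference of 0.072 ± 0.0584 at 10:6 and passed only at 10:4 without replicate 1 of BON-1 alone (adjusted p = 0.0399).

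RPA, the heterotrimer that coats unwound DNA, passed in no comparison with BON-1 alone in the fit of all 12 libraries. In other fits, RPA2 fell at 10:4 under limma-voom on recovered reads (adjusted p = 0.0382). RPA3 rose at 10:6 with only the groups compared (adjusted p = 0.0437). RPA1, its large subunit, had 29.2, 28.7 and 28.8 FPKM in BON-1 alone, 30.5, 29.2 and 29.8 at 10:2, 29.04, 28.9 and 28.6 at 10:4 and 29.8, 30.6 and 30.6 at 10:6. RPA2, the middle subunit, had 39.3, 40.6 and 41.5 FPKM in BON-1 alone, 40.6, 36.9 and 35.1 at 10:2, 34.8, 40.3 and 37.5 at 10:4 and 41.4, 39.0 and 41.6 at 10:6. RPA3, the small subunit, had 12.3, 13.5 and 13.7 FPKM in BON-1 alone, 14.5, 12.7 and 16.7 at 10:2, 15.4, 14.1 and 12.6 at 10:4 and 14.4, 14.8 and 14.5 at 10:6. RPA1 at 10:2 and 10:6 lay just above BON-1 alone, as did RPA3 at 10:6, and RPA2 overlapped at every ratio. At 10:6 the log2 differences were 0.067 ± 0.0292 for RPA1, 0.0069 ± 0.0593 for RPA2 and 0.14 ± 0.087 for RPA3 (adjusted p = 0.0774, 0.934 and 0.217). Exons of RPA1 overlap SMYD4, and those of RPA3 overlap UMAD1.

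Both genes that finish the lagging strand fell at 10:6. FEN1, the flap endonuclease that removes primer ends, had 88.2, 88.6 and 86.1 FPKM in BON-1 alone, 78.7, 86.1 and 82.5 at 10:2, 85.9, 82.9 and 80.7 at 10:4 and 83.4, 81.0 and 78.4 at 10:6. LIG1, the ligase that seals the nicks, had 24.3, 24.8 and 24.0 FPKM in BON-1 alone, 22.7, 21.8 and 23.4 at 10:2, 21.5, 20.1 and 21.5 at 10:4 and 22.0, 20.3 and 21.0 at 10:6. LIG1 was lower than BON-1 alone in all 9 co-culture libraries, and FEN1 in all 6 at 10:4 and 10:6. For LIG1 the log2 difference at 10:6 was -0.20 ± 0.0418 (adjusted p = 0.00221). For FEN1 it was -0.11 ± 0.0379 (adjusted p = 0.0273), a call that ended without replicate 1 or 2 of BON-1 alone or replicate 2 or 3 of 10:6 (adjusted p = 0.0735, 0.0803, 0.0614 and 0.106) and without a filter on low values (adjusted p = 0.0546). At 10:2 FEN1 passed without replicate 2 of 10:2 (adjusted p = 0.0445) and under limma-voom on recovered reads (adjusted p = 0.0382). Under limma-voom FEN1 also fell at 10:4 and LIG1 at 10:2 (adjusted p = 0.0411 and 0.0307). Neither passed with the trends removed (-0.098 for LIG1 and -0.036 for FEN1). Exons of FEN1 overlap TMEM258 and FADS2.

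At 10:6 the largest rise among the members on the log2(FPKM + 1) scale was that of RRM1 (Entrez gene 6240), the large subunit of ribonucleotide reductase, on chromosome 11 from 4094685 to 4138932. It had 31.8, 31.8 and 32.3 FPKM in BON-1 alone, 48.5, 47.1 and 48.3 at 10:2, 50.3, 52.6 and 49.2 at 10:4 and 51.9, 54.0 and 54.4 at 10:6. The 12 libraries formed a low level in BON-1 alone and a high level in the co-cultures, with 10:6 wholly above 10:2. The log2 difference was 0.57 ± 0.0326 at 10:2, 0.65 ± 0.0326 at 10:4 and 0.72 ± 0.0326 at 10:6 (adjusted p = 9.83e-07, 9.33e-08 and 4.68e-08). RRM1 stood at 0.40, 0.41 and 0.46 with the trends removed (adjusted p = 3.14e-06, 8.51e-07 and 3.57e-07).

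RRM2, the small subunit, which is made mainly in S phase, had 167, 171 and 167 FPKM in BON-1 alone, 179, 173 and 176 at 10:2, 170.4, 180.3 and 181 at 10:4 and 180.1, 191 and 189 at 10:6. Libraries at 10:4 overlapped with BON-1 alone, and those at 10:2 and 10:6 lay above it. RRM2 rose at 10:6 alone, with a log2 difference of 0.15 ± 0.0314 (adjusted p = 0.00244), and with the trends removed the sign turned, to -0.028 (adjusted p = 0.413). At 10:4 it passed only without replicate 1 of 10:4 (adjusted p = 0.02). The ratio of RRM1 to RRM2 was 0.190 ± 0.00354 in BON-1 alone, 0.273 ± 0.00156 at 10:2, 0.286 ± 0.0126 at 10:4 and 0.286 ± 0.00312 at 10:6. This ratio was formed from the deposited FPKM after the values were seen.

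TYMS, which makes thymidylate, had 59.97, 65.6 and 63.9 FPKM in BON-1 alone, 61.0, 59.5 and 58.2 at 10:2, 65.7, 56.7 and 58.7 at 10:4 and 54.1, 58.2 and 58.9 at 10:6. Its libraries overlapped with BON-1 alone except at 10:6. TYMS fell there by 0.14 ± 0.0548, just under the threshold (adjusted p = 0.0479), and this call ended when any of 9 libraries was left out: replicate 2 or 3 of BON-1 alone, any replicate of 10:2 or 10:6, or replicate 3 of 10:4 (adjusted p from 0.0532 to 0.162). It also ended without a filter on low values (adjusted p = 0.113). Exons of TYMS share 967 bases with ENOSF1 on the other strand, so its values are uncertain.

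The cyclin E genes, whose products drive entry into S phase with CDK2, differed from each other. CCNE1 had 12.3, 14.4 and 14.01 FPKM in BON-1 alone, 13.7, 13.7 and 11.9 at 10:2, 12.6, 15.7 and 13.2 at 10:4 and 14.8, 14.1 and 14.8 at 10:6, and each co-culture overlapped with BON-1 alone, while 10:6 lay above 10:2. CCNE2, at 1.77, 1.92 and 2.14 FPKM in BON-1 alone, 3.46, 2.53 and 3.28 at 10:2, 3.19, 3.60 and 3.12 at 10:4 and 2.48, 3.197 and 2.47 at 10:6, was above BON-1 alone in every co-culture library. It had the fewest reads of all members, 84 to 149 per library. The log2 difference of CCNE2 was 0.47 ± 0.105 at 10:2, 0.55 ± 0.105 at 10:4 and 0.33 ± 0.105 at 10:6 (adjusted p = 0.00651, 0.00128 and 0.0205). At 10:6 the call ended without replicate 1 or 2 of BON-1 alone or replicate 2 of 10:6 (adjusted p = 0.0727, 0.0523 and 0.0897) or a filter on low values (adjusted p = 0.0569), and with the trends removed the sign turned, to -0.064 (adjusted p = 0.644). Exons of CCNE2 share 1629 bases with INTS8 on the other strand.

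**Figure D4:**
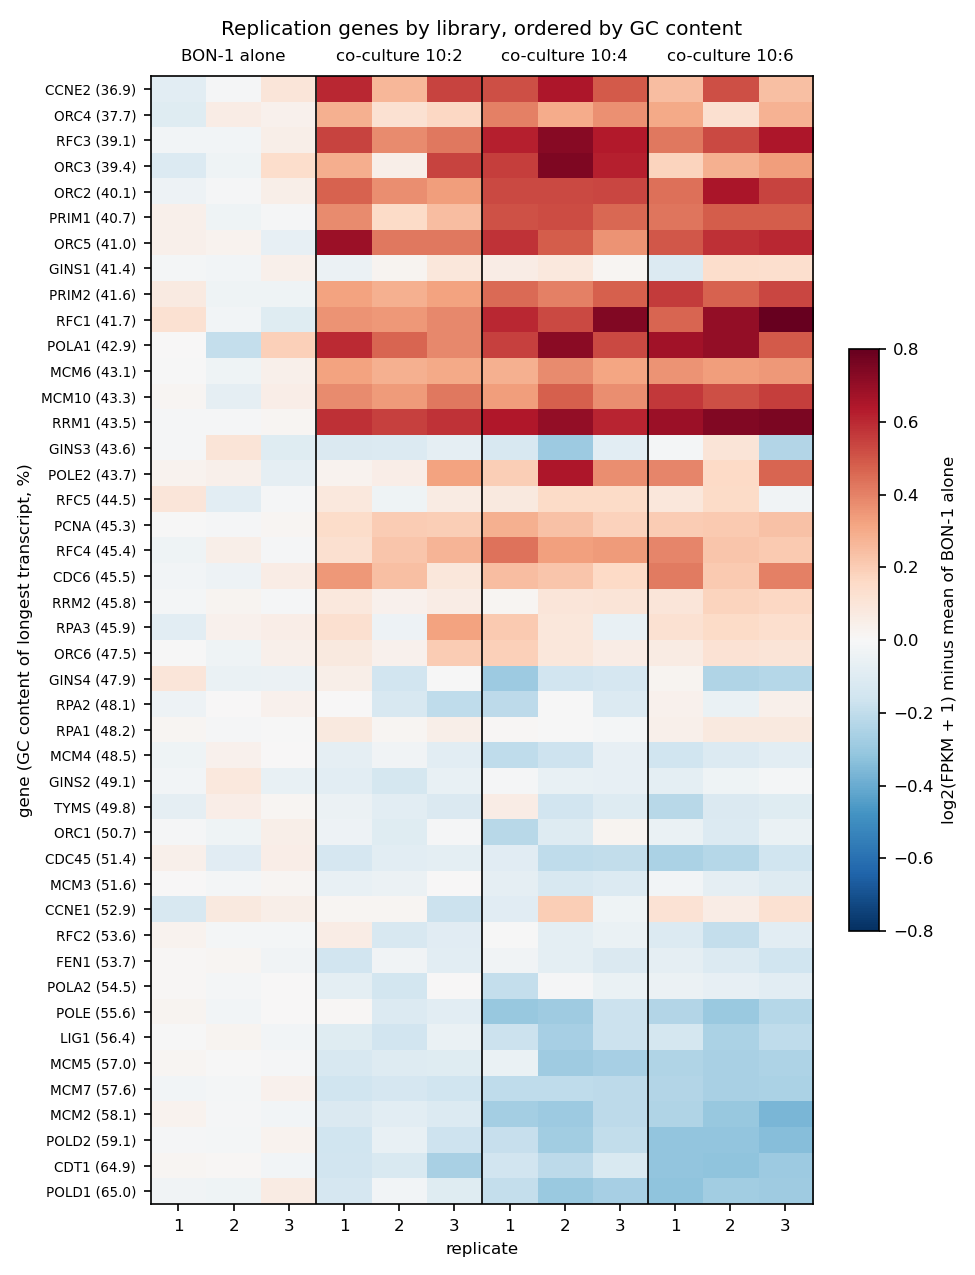
Log2(FPKM + 1) of the 44 members in each of the 12 libraries, minus the mean of BON-1 alone, with genes ordered from the lowest GC content of the longest transcript (top) to the highest (bottom) and groups ordered by the share of CAFs. Red is above and blue below BON-1 alone; the 17 genes that rose at 10:6 lie no lower in this order than RRM2 (45.8%), and the 13 that fell no higher than MCM4 (48.5%). GINS3, at 43.6%, averaged below BON-1 alone at every ratio.

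Between the co-culture ratios few members differed. At 10:6 against 10:2, 3 rose and 5 fell, beside 4.52% and 2.45% of all genes. PRIM1 rose by 0.21 ± 0.0523, PRIM2 by 0.21 ± 0.0507 and RRM1 by 0.15 ± 0.0326 (limma adjusted p = 0.0382, 0.0321 and 0.0212). MCM2 fell by 0.20 ± 0.0359, MCM7 by 0.099 ± 0.0233, POLD1 by 0.21 ± 0.0416, POLD2 by 0.20 ± 0.0365 and POLE by 0.19 ± 0.0466 (adjusted p = 0.0108, 0.0302, 0.0159, 0.0126 and 0.034). The count of 8 fell to 1 without replicate 3 of 10:6, to 2 without replicate 2 of 10:2, to 3 without replicate 2 of 10:6 and to 5 without replicate 1 or 3 of 10:2. MCM2, POLD2 and POLE still fell after trend removal, by 0.16, 0.15 and 0.16 (adjusted p = 0.0152, 0.0225 and 0.0377), beside 1.75% of genes falling. No overlap between 10:6 and 10:2 was seen for 9 members that were higher and 8 that were lower, beside 17.6% and 11.3%.

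At 10:4 against 10:2, PRIM1 rose by 0.24 ± 0.0523 and MCM2 fell by 0.15 ± 0.0359 (adjusted p = 0.0356 and 0.0447), beside 2.88% of all genes. With the trends removed 0 members passed, beside 0.751% of genes, and the count of 2 became 0 or 1 when any of 9 libraries was left out. Libraries of 10:4 and 10:2 did not overlap for 9 members higher and 8 lower at 10:4, beside 14.6% and 9.04%. At 10:6 against 10:4 limma called 0 of 44 members and 0.331% of all genes, and after trend removal again 0 members and 0.565% of genes. In that comparison 7 members had an unadjusted p under 0.05, and limma-voom on the recovered reads called 2. The libraries of 10:6 did not overlap those of 10:4 for 2 members that were higher and 5 that were lower, beside 9.77% and 7.61% of all genes.

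Other genes of the same processes, listed by function, also went both ways at 10:6 against BON-1 alone. The shares of all tested genes there were 29.7% rising and 18.3% falling, or 12.9% and 12.4% after trend removal. Of 30 other replication genes tested, 18 rose and 9 fell. Of 17 other genes of nucleotide supply, 3 rose and 5 fell, and of 26 genes that control the step from G1 to S phase, 12 rose and 6 fell. With the trends removed the counts were 7 and 6, 1 and 7, and 4 and 3. The median log2 differences were 0.32, -0.042 and 0.22 as deposited, and -0.013, -0.095 and 0.023 with the trends removed.

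SUPT16H, a subunit of the histone chaperone FACT, averaged 73.2 ± 0.886 FPKM at 10:6 and 39.7 ± 0.979 FPKM in BON-1 alone, a log2 difference of 0.87 ± 0.0369 (adjusted p = 3.4e-08). TOP1, the topoisomerase that relaxes DNA ahead of the fork, averaged 37.3 ± 2.77 and 21.0 ± 0.316 FPKM in those groups (0.80 ± 0.0574, adjusted p = 1.14e-06). PCLAF, the PCNA-associated factor, averaged 52.5 ± 1.06 and 31.5 ± 0.728 FPKM (0.72 ± 0.0313, adjusted p = 3.94e-08). These 3 genes, like RRM1, passed with the trends removed, at 0.60, 0.47 and 0.49. In nucleotide supply, as deposited, the purine enzyme PAICS rose by 0.40 ± 0.0351 (adjusted p = 5.09e-06). In the same values the salvage enzyme TK1 fell by 0.25 ± 0.0316 (adjusted p = 7e-05) and CAD, which starts pyrimidine synthesis, fell by 0.24 ± 0.0444 (adjusted p = 0.000849).

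Among the G1 to S regulators, the retinoblastoma gene RB1 averaged 3.28 ± 0.153 FPKM at 10:6 and 1.58 ± 0.204 FPKM in BON-1 alone (log2 difference 0.73 ± 0.0856, adjusted p = 3.86e-05). The kinase CDK6 averaged 3.32 ± 0.188 and 1.98 ± 0.0606 FPKM (0.53 ± 0.0707, adjusted p = 9.29e-05), and SKP2, which targets cell cycle inhibitors for degradation, averaged 39.1 ± 0.293 and 27.8 ± 0.861 FPKM (0.48 ± 0.0432, adjusted p = 5.71e-06). With the trends removed RB1 and SKP2 passed at 0.29 and 0.12 (adjusted p = 0.0203 and 0.0293), and CDK6 was at 0.15 (adjusted p = 0.0867).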

How the data were processed

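RNA-seq values came from a single table of FPKM values that the authors deposited, with the 12 libraries in columns matched to samples by the codes in their titles. Per the submitters' processing notes, the tools were HISAT2 and featureCounts on hg38, and neither a version nor a setting, strand included, is given in the sources used here. Whole reads were recovered from the FPKM (99.9738% of 267349 nonzero values lay within 1e-07 of a whole read), which gave the depths. Within each group, any pair of libraries gave a chi-square per degree of freedom of 1.66 to 4.33, above counting noise.

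The 13312 genes that reached an FPKM of 1 in 3 or more libraries were fitted as log2(FPKM + 1) in limma 3.58.1 (R 4.3.3), with a mean per group, all 12 libraries and a variance trend. The pseudocount of 1 understates the change of low genes. Benjamini-Hochberg adjustment was made over all genes in each of 6 comparisons, at a threshold of 0.05, and ± after a log2 difference is its standard error. In the trend-removed values, a loess curve on GC content and gene length (span 0.3) was subtracted in each library over the 12388 genes (93.1%) with both known, GC content being that of the longest transcript in GENCODE 29. Positions and promoters are RefSeq's on GRCh38.p14, and PCLAF was found under its older symbol. The fit was also run on simulated reads. These held no GC trend, and the changes set in them were larger than those of the members. That run thus cannot check the calls given here. Replicate numbers did not pair the libraries: deviations of same-numbered libraries from their group means correlated at -0.0427 to 0.0458 (18 pairs).

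Per-library values are given for the 3 members of each of 9 role groups with the smallest F test p and for members called between ratios. The members, roles and other lists were chosen with earlier results of these data known. Figures were drawn with matplotlib 3.10.9 in Python 3.11.15.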

Additional observations from a re-analysis of the deposited data

How the results depend on the processing

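With length and GC trends removed, the members that rose numbered 4 at 10:2, 5 at 10:4 and 6 at 10:6 against BON-1 alone (14, 17 and 17 as deposited), the F test passed 15 (28 as deposited), and 0 were called at 10:4 against 10:2 and 3 at 10:6 against 10:2. The falls were 2, 8 and 12 (3, 11 and 13 as deposited), within 1.5 times. The sign turned at all 3 ratios, given from 10:2 to 10:6, for RRM2 (-0.046, -0.064 and -0.028), ORC4 (-0.15, -0.16 and -0.20), GINS1 (-0.21, -0.28 and -0.28) and RFC5 (-0.11, -0.070 and -0.16). At 10:2 it also turned for POLD1 (0.012), POLE2 (-0.0021), RFC2 (0.0042), RPA1 (-0.0077) and CCNE1 (0.0046), at 10:4 for POLA2 (0.020), RFC2 (0.029), RPA3 (-0.035) and FEN1 (0.010), and at 10:6 for ORC3 (-0.11), POLA2 (0.017), RPA1 (-0.024), RPA2 (-0.055) and CCNE2 (-0.064). Of these, ORC4 at 10:4 and 10:6 and RRM2 and CCNE2 at 10:6 were calls as deposited, and GINS1 became one at each ratio. The cause was not tested.

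Without a filter on low values, 0 were called at 10:4 against 10:2, and the calls of CDC6 at 10:2 and 10:4 (adjusted p = 0.0819 and 0.0714) and of FEN1, TYMS, CCNE2, POLE2 and RFC2 at 10:6 ended. In fits of only the groups compared, 5 fell at 10:2, 0 were called at 10:4 against 10:2 and 3 at 10:6 against 10:2. Added after the data were seen, limma-voom on recovered reads with TMM factors gave 8 falls at 10:2, 6 calls at 10:4 against 10:2 and 2 at 10:6 against 10:4, and protein-coding genes alone gave 4 calls at 10:4 against 10:2. RPA2 at 10:6 turned to -0.025 under median-of-ratios rescaling and -0.034 under limma-voom, and CCNE1 at 10:4 to -0.0045 under limma-voom; neither was called. A pseudocount of 0.1 changed no call among the 44 members. Median-of-ratios rescaling moved the median of all genes by at most 0.03. It added the falls of MCM2 at 10:2 and MCM3 at 10:6 as calls (adjusted p = 0.0404 and 0.0232). The quasi-likelihood count test listed beforehand was not run, because the deposited unit is FPKM.

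The replicate number as a block is no pairing here. With that replicate block, 0 members were called at 10:4 against 10:2 and 5 at 10:6 against 10:2, and TYMS and POLE2 at 10:6 lost their calls (adjusted p = 0.0782 and 0.0502). With the block and the trends removed together, 3, 5 and 7 members rose, 1, 7 and 10 fell, the F test passed 12, and 0 and 2 were called at 10:4 and 10:6 against 10:2; the signs that turned were those given above.

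Leaving out each library in turn gave 12 to 14, 15 to 18 and 14 to 18 rises at 10:2, 10:4 and 10:6, 2 to 4, 9 to 12 and 9 to 13 falls, and 24 to 29 in the F test. It gave 0 to 2 calls at 10:4 against 10:2, 0 at 10:6 against 10:4 and 1 to 9 at 10:6 against 10:2. The sign turned in some of these fits, none of them calls, for GINS1, GINS4, RFC5 and CCNE1 at 10:2 (-0.012 to 0.056, -0.079 to 0.021, -0.0030 to 0.088 and -0.11 to 0.017), RPA1 and CCNE1 at 10:4 (-0.0082 to 0.0041 and -0.063 to 0.082) and GINS3 and RPA2 at 10:6 (-0.13 to 0.044 and -0.013 to 0.036).

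Depth limits the low members most: CCNE2 rests on 84 to 149 reads a library. Differences that missed the threshold are not shown to be absent.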
